A study of Arabidopsis thaliana with 15 samples.

Results

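Transcript levels of 5 genes of chlorophyll synthesis and breakdown were followed in leaves of Arabidopsis thaliana (Col-0) kept in light or darkened for up to 6 days. Synthesis was represented by GSA1 (AT5G63570), CHLM (AT4G25080) and PORB (AT4G27440), and breakdown by NOL (AT5G04900) and AT1G44000, a gene of the stay-green type. The genes were chosen for their place in the pathway, with earlier results of these data known. They were found by symbol or locus code among probe sets paired with exactly 1 gene. All 5 were among the 16174 genes paired in this way, which are called measured below. The 15 Affymetrix arrays formed 5 groups of 3 biological replicates, each replicate a pool of 2 leaves from independent plants taken at noon. All groups shared the Col-0 background and growth in short days, 8 h of light (180 µmol m−2 s−1) and 16 h of dark at 22 °C. Light leaves were sampled once, at day 0. Individually darkened leaves (IDL) were fully expanded leaves under foil-coated covers, on plants whose other leaves stayed in the daily light cycle, sampled at day 3 and day 6. Leaves of darkened plants (DP) came from whole plants placed in dark boxes, also sampled at day 3 and day 6.

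Chlorophyll is made in the plastid from glutamate. GSA1 makes aminolevulinic acid, the precursor of all tetrapyrroles, CHLM methylates magnesium protoporphyrin on the branch that leads only to chlorophyll, and PORB reduces protochlorophyllide, a step that needs light in flowering plants. In the breakdown pathway the chlorophyll b reductases NYC1 and NOL take the first step from chlorophyll b back to chlorophyll a. Proteins of the STAY-GREEN family then remove the magnesium from chlorophyll a. AT1G44000 is the STAY-GREEN-like member of that family, known as a gene of green leaves, whereas the other members are known for their part in senescence.

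Values are deposited intensities converted to log2, and differences are log2 differences with their standard error (n = 3 arrays per group throughout). The test was limma's, two-sided, with Benjamini-Hochberg adjustment over all 16174 genes, and an adjusted p under 0.05 counted as a change. Arrays of 1 group correlated at 0.984 to 0.991 across all probe sets and arrays of different groups at 0.805 to 0.980, and no 2 arrays were identical. The 5 genes were bright, with group means of 5.41 to 9.86, while the lower quartile of all gene means was between 3.44 and 3.51 in the 5 groups. Of the fixed marker lists, 2 of 7 mesophyll genes (RCA and SBPASE) and 1 of 5 guard cell genes (FMA) were measured, and none of the 5 epidermis, 6 vascular and 3 trichome genes. The summed intensity of RCA and SBPASE was 544 to 614 in IDL at day 3, 563 to 704 in IDL at day 6, 590 to 600 in DP at day 3, 480 to 521 in DP at day 6 and 2897 to 3390 in light, and neither gene was at 0. Most of that sum in darkness was RCA, and the 2 genes differed between the treatments. SBPASE was lower in IDL than in DP at day 3 (-1.05 ± 0.13, adjusted p = 3.00e-06) and day 6 (-1.01 ± 0.13, adjusted p = 2.24e-06), while RCA differed by 0.01 at day 3 (adjusted p = 0.971) and was higher in IDL at day 6 (0.47 ± 0.11, adjusted p = 0.00300). FMA had intensities of 44.8 to 55.8 in IDL at day 3, 50.4 to 61.7 in IDL at day 6, 40.0 to 57.1 in DP at day 3, 39.8 to 51.1 in DP at day 6 and 38.0 to 43.9 in light. The part of these markers in the results below was not tested, and in whole leaves fewer cells of a type and less RNA per cell cannot be told apart. Because light was sampled at day 0 only, darkness and 3 or 6 more days of leaf age cannot be told apart either.

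All 3 synthesis genes and AT1G44000 were lower than in light in both kinds of darkened leaf at both days, while NOL went opposite ways, higher than in light in IDL and lower in DP at day 6. In IDL at day 3 all 5 genes changed, 4 lower and 1 higher, where 39.6% of all genes changed, 18.8% lower and 20.8% higher. In IDL at day 6 all 5 changed, again 4 lower and 1 higher, against 39.7% of all genes, 19.1% lower and 20.6% higher. In DP at day 3 4 genes fell and NOL did not pass, against 35.2% of all genes, 18% lower and 17.2% higher. In DP at day 6 all 5 fell, against 39.9% of all genes, 19.6% lower and 20.3% higher. The median difference of the 5 genes was -1.90 in IDL at day 3, -2.88 in IDL at day 6, -1.32 in DP at day 3 and -1.35 in DP at day 6. The corresponding medians of all 16174 genes were 0.06, 0.03, 0.04 and 0.05. The 4 comparisons share the 3 light arrays and are therefore not independent of each other.

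**Figure D1:**
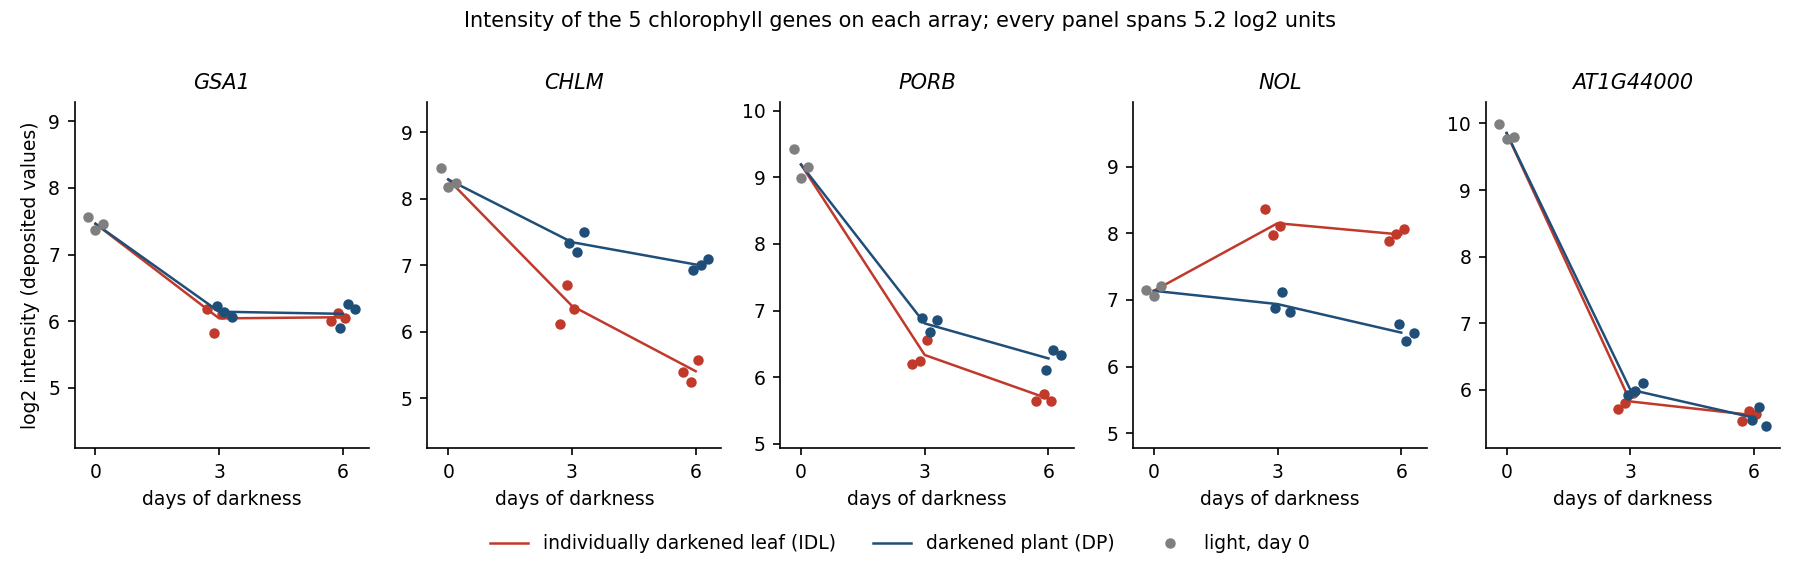
Log2 intensity (y axis) of GSA1, CHLM, PORB, NOL and AT1G44000 against days of darkness (x axis). Each point is 1 array, lines join group means from light at day 0 to IDL (red) and DP (blue), and every panel spans the same number of log2 units. NOL is the gene whose red and blue lines leave light in opposite directions, and the lines of GSA1 and AT1G44000 nearly coincide.

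GSA1, the aminomutase that forms aminolevulinic acid, fell in all 4 darkened groups, by 2.50-fold to 2.68-fold. In light at day 0 its log2 intensity was 7.56, 7.37 and 7.46. In IDL it was 6.18, 5.83 and 6.11 at day 3 and 5.99, 6.13 and 6.05 at day 6. Leaves of DP had 6.22, 6.14 and 6.06 at day 3 and 5.89, 6.25 and 6.18 at day 6. No darkened array reached the lowest light array, and the darkened groups overlapped each other. The difference from light was -1.42 ± 0.12 in IDL at day 3 (2.68-fold lower, adjusted p = 3.02e-09) and -1.40 ± 0.12 at day 6. In DP it was -1.32 ± 0.12 at day 3 and -1.35 ± 0.12 at day 6. In order of level, IDL at day 3, IDL at day 6, DP at day 6 and DP at day 3 followed one another with steps of 0.02, 0.05 and 0.03 and overlapping arrays, and light stood 1.32 above them.

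CHLM, the magnesium protoporphyrin methyltransferase, was graded by the kind of darkening. In light its log2 intensity was 8.46, 8.17 and 8.23. In IDL it was 6.12, 6.71 and 6.34 at day 3 and 5.40, 5.24 and 5.58 at day 6. DP leaves had 7.34, 7.20 and 7.49 at day 3 and 6.93, 7.01 and 7.09 at day 6. The 5 groups did not overlap, in the order IDL at day 6, IDL at day 3, DP at day 6, DP at day 3 and light, with steps of 0.98, 0.62, 0.34 and 0.94 between their means. The difference of CHLM from light was -1.90 ± 0.14 in IDL at day 3 and -2.88 ± 0.14 in IDL at day 6 (7.37-fold lower, adjusted p = 2.51e-13). In DP it fell by 0.94 ± 0.14 at day 3 (adjusted p = 1.10e-05) and by 1.28 ± 0.14 at day 6.

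PORB, one of the protochlorophyllide oxidoreductases, had the deepest fall of the 3 synthesis genes in every darkened group. In light its log2 intensity was 9.43, 8.99 and 9.16. In IDL it was 6.19, 6.24 and 6.56 at day 3 and 5.64, 5.74 and 5.64 at day 6. Values in DP were 6.89, 6.68 and 6.86 at day 3 and 6.10, 6.40 and 6.33 at day 6. All darkened arrays lay far below the light arrays, and IDL at day 6 lay below every other group. The fall from light was 11.5-fold in IDL at day 6 (a difference of -3.52 ± 0.13, adjusted p = 4.23e-15) and 7.27-fold in IDL at day 3 (-2.86 ± 0.13). In DP PORB was 5.23-fold lower at day 3 (-2.39 ± 0.13) and 7.54-fold lower at day 6 (-2.91 ± 0.13). IDL at day 3 and DP at day 6 differed by 0.05 and overlapped, and the other neighbouring groups did not. In IDL at day 6, 87 of the 16174 genes had a larger fall than PORB, against 187 for CHLM and 792 for GSA1.

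NOL, a chlorophyll b reductase, was the 1 gene of the 5 that rose in darkness, and it rose in IDL. In light its log2 intensity was 7.14, 7.06 and 7.21. In IDL it was 8.37, 7.98 and 8.11 at day 3 and 7.89, 8.00 and 8.07 at day 6. In DP it was 6.88, 7.12 and 6.82 at day 3 and 6.64, 6.38 and 6.50 at day 6. Every IDL array lay above every light array, every DP array of day 6 lay below them, and DP at day 3 overlapped light. NOL rose by 1.02 ± 0.12 in IDL at day 3 (2.02-fold, adjusted p = 5.64e-07) and by 0.85 ± 0.12 in IDL at day 6 (1.80-fold, adjusted p = 6.15e-06). In DP at day 3 the difference was -0.20 ± 0.12 (95% interval -0.46 to 0.06, adjusted p = 0.237), and at day 6 NOL fell by 0.63 ± 0.12 (adjusted p = 0.000238). In order of level the groups were DP at day 6, DP at day 3, light, IDL at day 6 and IDL at day 3. Of these, DP at day 3 and light overlapped, as did both IDL groups.

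AT1G44000, the stay-green-like gene, fell most of the 5 in all 4 comparisons with light. In light its log2 intensity was 9.996, 9.77 and 9.80. In IDL it was 5.71, 5.80 and 5.95 at day 3 and 5.52, 5.68 and 5.64 at day 6. In DP it was 5.92, 5.98 and 6.10 at day 3 and 5.54, 5.74 and 5.45 at day 6. The 12 darkened arrays lay between 5.45 and 6.10, and the lowest light array stood at 9.77. The gene was 16.4-fold lower than light in IDL at day 3 (-4.03 ± 0.11, adjusted p = 1.30e-16) and 18.9-fold lower at day 6 (-4.24 ± 0.11). In DP it was 14.5-fold lower at day 3 (-3.86 ± 0.11) and 19.4-fold lower at day 6 (-4.28 ± 0.11, adjusted p = 5.05e-17). Between 18 and 38 of the 16174 genes had a larger fall in these 4 comparisons. DP at day 6 and IDL at day 6 overlapped in level, as did IDL at day 3 and DP at day 3, while the 2 IDL groups were 0.21 apart without overlap.

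Set against each other, the means of synthesis and breakdown differed in opposite directions in IDL and DP. In IDL the 2 breakdown genes themselves went opposite ways, while in DP at day 6 both were lower than in light. The mean change of GSA1, CHLM and PORB from the light mean was -2.06 ± 0.09 in IDL at day 3, -2.60 ± 0.04 in IDL at day 6, -1.55 ± 0.08 in DP at day 3 and -1.85 ± 0.14 in DP at day 6 (SD over arrays, n = 3). The mean change of NOL and AT1G44000 was -1.51 ± 0.08, -1.70 ± 0.08, -2.03 ± 0.08 and -2.45 ± 0.06 in the same 4 groups. Synthesis minus breakdown was thus negative on all 6 IDL arrays, from -0.95 to -0.45, and positive on all 6 DP arrays, from 0.31 to 0.74. On the 3 light arrays it was between -0.06 and 0.10. No test was made of these means, since they follow from the choice of genes, and each hides the opposite course of NOL and AT1G44000 in IDL.

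**Figure D2:**
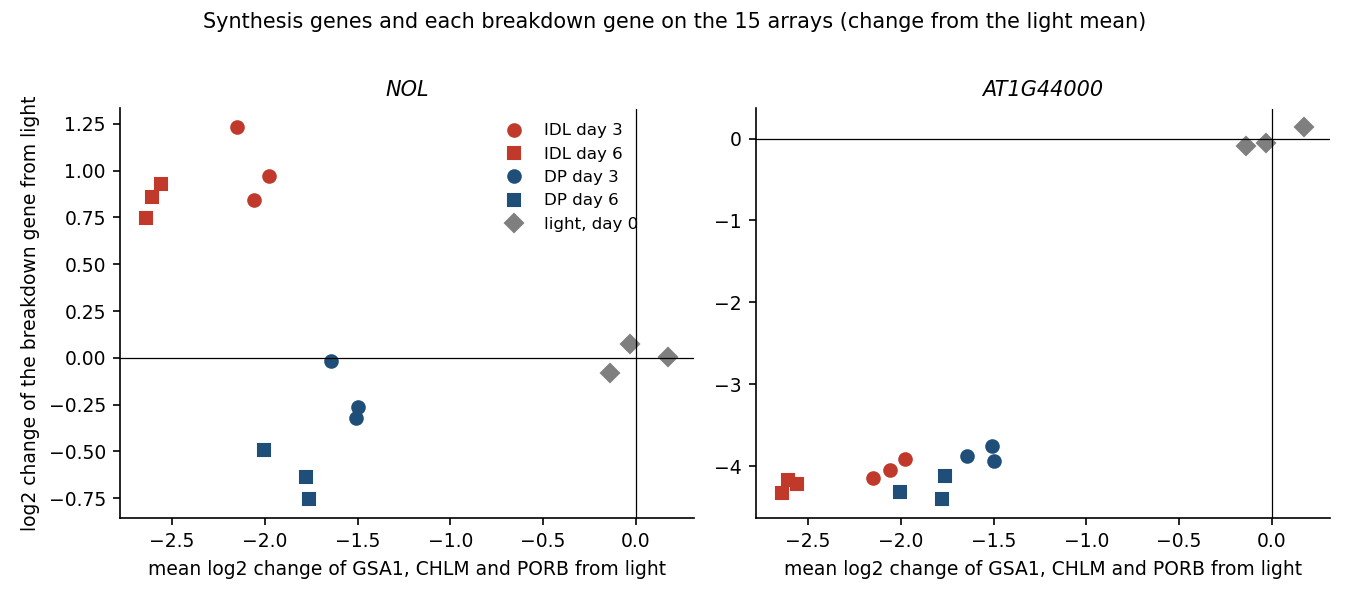
Change of NOL (left) and AT1G44000 (right) from the light mean, on the log2 scale, against the mean change of GSA1, CHLM and PORB on the same array. Each symbol is 1 of 15 arrays, red for IDL, blue for DP and grey for light. IDL arrays lie above 0 for NOL and DP arrays below it, while all 12 darkened arrays lie together far below light for AT1G44000.

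Leaves darkened singly were then compared with leaves of darkened plants of the same day, a comparison in which the light arrays play no part. At day 3 3 of the 5 genes differed, with NOL higher and CHLM and PORB lower in IDL, where 16.7% of all genes differed, 8.74% higher and 7.99% lower. At day 6 the direction was the same for these 3 genes, against 29.1% of all genes, 15.1% higher and 13.9% lower. NOL averaged 8.15 ± 0.20 in IDL and 6.94 ± 0.16 in DP at day 3, and 7.98 ± 0.09 in IDL and 6.51 ± 0.13 in DP at day 6 (SD). The differences were 1.22 ± 0.12 (adjusted p = 1.91e-07) and 1.47 ± 0.12 (2.78-fold, adjusted p = 4.97e-09), with no overlap of arrays. Among all 16174 genes 193 had a larger difference in that direction at day 3 and 281 at day 6.

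CHLM averaged 6.39 ± 0.30 in IDL and 7.34 ± 0.15 in DP at day 3, and 5.41 ± 0.17 in IDL and 7.01 ± 0.08 in DP at day 6. It was lower in IDL by 1.94-fold at day 3 (a difference of -0.96 ± 0.14, adjusted p = 2.96e-05) and by 3.04-fold at day 6 (-1.60 ± 0.14, adjusted p = 1.04e-08). PORB averaged 6.33 ± 0.20 in IDL and 6.81 ± 0.11 in DP at day 3, a difference of -0.47 ± 0.13 (adjusted p = 0.0142). That call was lost without IDL replicate 1 (adjusted p = 0.0785) or 2 (0.0605) and without DP replicate 1 (0.0620) or 3 (0.0520). At day 6 PORB averaged 5.67 ± 0.06 in IDL and 6.28 ± 0.16 in DP, a difference of -0.61 ± 0.13 (adjusted p = 0.00108).

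For the other 2 genes no difference between the treatments passed. GSA1 differed by -0.10 between IDL and DP at day 3 (95% interval -0.35 to 0.15, adjusted p = 0.693) and by -0.05 at day 6 (-0.30 to 0.20, adjusted p = 0.814). AT1G44000 differed by -0.18 at day 3 (-0.42 to 0.06, adjusted p = 0.369) and by 0.04 at day 6 (-0.20 to 0.28, adjusted p = 0.852). Differences of the size seen for NOL or for CHLM lie outside these intervals.

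**Figure D3:**
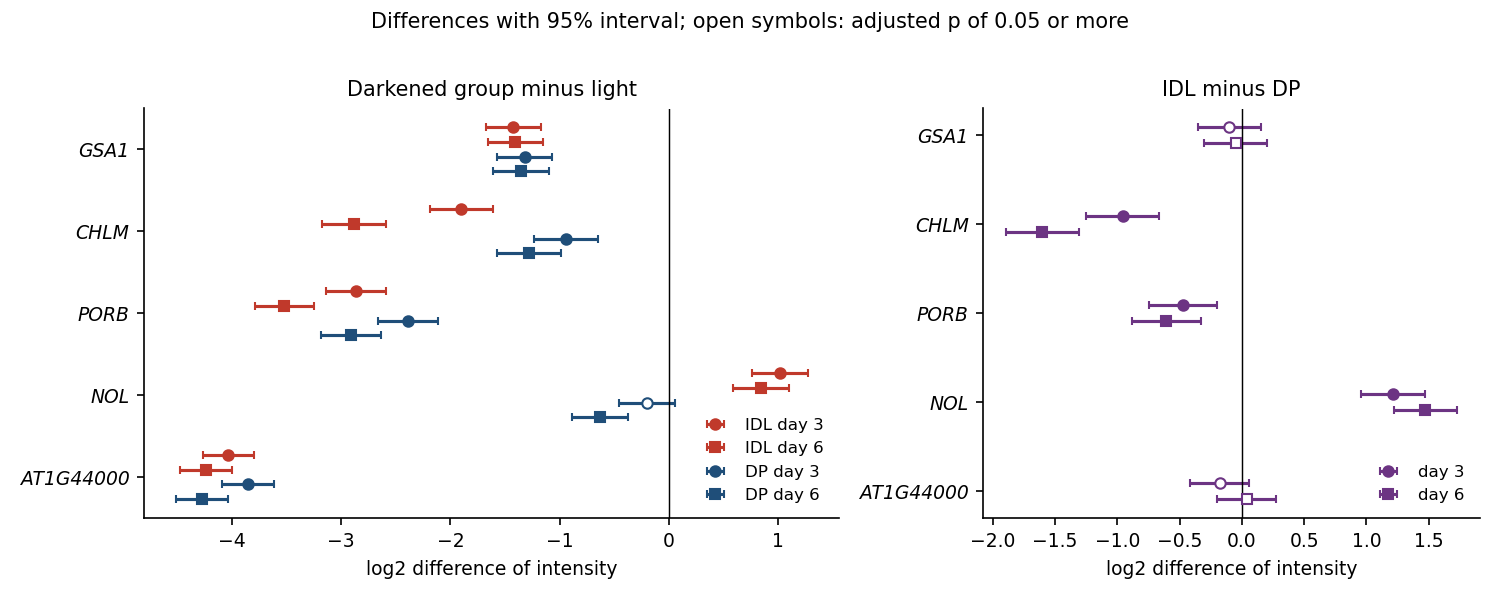
Log2 differences (x axis) of the 5 genes with their 95% interval, for each darkened group minus light (left) and for IDL minus DP (right). Circles are day 3 and squares day 6, and open symbols mark an adjusted p of 0.05 or more. On the right, NOL lies above 0 at both days (1.22 and 1.47), CHLM and PORB lie below it, and the intervals of GSA1 and AT1G44000 include it.

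From day 3 to day 6 the synthesis genes did not move as 1 group. In IDL CHLM fell further, to a mean of 5.41 ± 0.17 at day 6, against 6.39 ± 0.30 at day 3 (a difference of -0.98 ± 0.14, adjusted p = 5.96e-05), and 55 of all genes had a larger fall. PORB differed by -0.66 ± 0.13 in IDL (adjusted p = 0.00224). The remaining 3 genes did not pass there, with GSA1 at 0.02, NOL at -0.17 and AT1G44000 at -0.21, where 8.64% of all genes changed, 3.83% lower and 4.82% higher. In DP PORB fell (-0.53 ± 0.13, adjusted p = 0.0232), as did NOL (-0.43 ± 0.12, adjusted p = 0.0494) and AT1G44000 (-0.42 ± 0.11, adjusted p = 0.0358), where 4.56% of all genes changed, 2.53% lower and 2.03% higher. CHLM stood at -0.34 ± 0.14 (adjusted p = 0.213) in DP and GSA1 at -0.03.

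The 3 calls in DP were close to the threshold. PORB lost its call without replicate 1 or 3 of DP at day 3 or replicate 1 of day 6 (adjusted p = 0.0958, 0.0792 and 0.101). NOL lost it without any replicate of day 3 or without replicate 2 or 3 of day 6, and AT1G44000 without any replicate of day 3 or without replicate 1 or 3 of day 6. With arrays centred on the reference genes none of the 3 passed (adjusted p = 0.101, 0.184 and 0.164 in the order PORB, NOL and AT1G44000). The change over days was also compared between the treatments. No gene of the 5 passed in this interaction, where 5.36% of all genes did, 3.13% higher and 2.23% lower. The largest was that of CHLM, whose change from day 3 to day 6 differed between IDL and DP by -0.65 ± 0.20 (adjusted p = 0.0618). CHLM passed without replicate 1 of IDL at day 3 (-0.78, adjusted p = 0.0226). It also passed after quantile normalization (-0.70, adjusted p = 0.0395) and with an intensity trend and robust prior (adjusted p = 0.0451).

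Other genes of the pathway were taken from lists of 35 genes of synthesis, 9 of the heme and siroheme branch and 14 of breakdown, of which 12, 1 and 2 were measured. Apart from the 5 genes above these were 9 synthesis genes and 1 of the siroheme branch, and no other breakdown gene. The rest, among them NYC1, PPH, PAO, SGR1 and SGR2, were not found among probe sets paired with exactly 1 gene. They were not analysed here, and whether other probe sets on the array hold their signal was not examined. Of the 9 other synthesis genes, 6 were lower in IDL at day 3 and 6 at day 6, where 18.8% and 19.1% of all genes were lower. In DP 5 were lower at day 3 and 6 at day 6, where 18% and 19.6% of all genes were. The median of the 9 was -1.25 and -1.28 in IDL at day 3 and day 6, and -1.44 and -1.57 in DP. In each group this was the value of 1 gene, HEME2. With GSA1, CHLM and PORB added the order of the treatments turned. The medians were then -1.66 and -1.85 in IDL and -1.38 and -1.46 in DP, and neither order was tested. Tested gene by gene, 0 of the 9 were higher and 2 lower in IDL than in DP at day 3, against 8.74% and 7.99% of all genes. At day 6 1 was higher, the dim HEMA3 (0.42), and 2 were lower, against 15.1% and 13.9% of all genes. The HEMA3 call (adjusted p = 0.0175) was lost without replicate 1 or 3 of DP or replicate 1 or 2 of IDL at day 6. HEME1 and HEME2, uroporphyrinogen decarboxylases of the trunk shared with heme, fell in all 4 comparisons. HEME1 stood at -2.24 and -2.65 in IDL and at -2.04 and -2.14 in DP at day 3 and day 6 (SE 0.14). HEME1 was lower in IDL than in DP at day 6 (-0.51 ± 0.14, adjusted p = 0.00697), a call lost with reference gene centring (adjusted p = 0.0971). HEME2 stood at -1.25 and -1.28 in IDL and at -1.44 and -1.57 in DP.

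AT1G74470, the geranylgeranyl reductase that provides the phytol tail, stood at -3.24 and -3.62 in IDL at day 3 and day 6, and at -2.10 and -3.10 in DP (SE 0.11), all called. IDL differed from DP by -1.15 ± 0.11 at day 3 (adjusted p = 4.91e-08) and by -0.52 ± 0.11 at day 6 (adjusted p = 0.000586), lower in IDL. From day 3 to day 6 its mean went from 7.82 to 6.81 in DP and from 6.67 to 6.30 in IDL. This change over days differed between the treatments by 0.63 ± 0.15 (interaction, adjusted p = 0.0131). Its sign was opposite to that of CHLM, whose interaction did not pass. Transcripts of LIL3:1 and LIL3:2, which encode light-harvesting-like proteins that hold this reductase at the thylakoid, fell too. LIL3:2 stood at -2.21 and -2.43 in IDL and at -1.55 and -2.21 in DP. At day 3 it was lower in IDL than in DP (-0.66 ± 0.16, adjusted p = 0.00609). LIL3:1 stood at -2.50 and -2.29 in IDL and at -2.41 and -2.36 in DP, with darkened means of 3.51 to 3.72, close to the lower quartile of all genes.

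Of the 4 remaining synthesis genes, HEMA3 and hemb2 were dim in every group, with means of 3.05 to 3.60 and 3.38 to 3.52, and hemf2 was dim in the darkened groups, at 3.25 to 3.58, with a light mean of 3.89. HEMA2 and HEMA3, glutamyl-tRNA reductases of the first step, passed as higher in IDL at day 6, at 0.44 ± 0.16 (adjusted p = 0.0331) and 0.37 ± 0.13 (adjusted p = 0.0273). In the other 3 groups HEMA2 stood between 0.08 and 0.22 and HEMA3 between -0.18 and 0.06, and none passed. HEMA2 did not pass in IDL at day 6 without replicate 2 of light (adjusted p = 0.161) or replicate 1 (0.1001) or 3 (0.138) of IDL at day 6. HEMA3 did not pass without replicate 1 (0.159) or 2 (0.0615) of light or replicate 1 (0.0802) or 2 (0.0827) of IDL at day 6. The dehydratase gene hemb2 passed in no comparison with light, at 0.14 and 0.00 in IDL and 0.06 and 0.10 in DP. The coproporphyrinogen oxidase gene hemf2 fell in IDL at day 3 (-0.64) and day 6 (-0.54) and in DP at day 6 (-0.59). Its fall at day 6 in DP was not called without replicate 1 of light. That in IDL at day 6 was not called without replicate 1 or 2 of light or replicate 2 of IDL. With reference gene centring hemf2 in IDL at day 6 was not called either (-0.35, adjusted p = 0.0982). In DP at day 3 hemf2 stood at -0.30 (adjusted p = 0.177), and without replicate 3 of light it was called, at -0.53 (adjusted p = 0.00854). In the siroheme branch SIRB, a ferrochelatase, fell in all 4 comparisons, at -0.59 and -0.68 in IDL and -0.66 and -0.97 in DP.

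**Figure D4:**
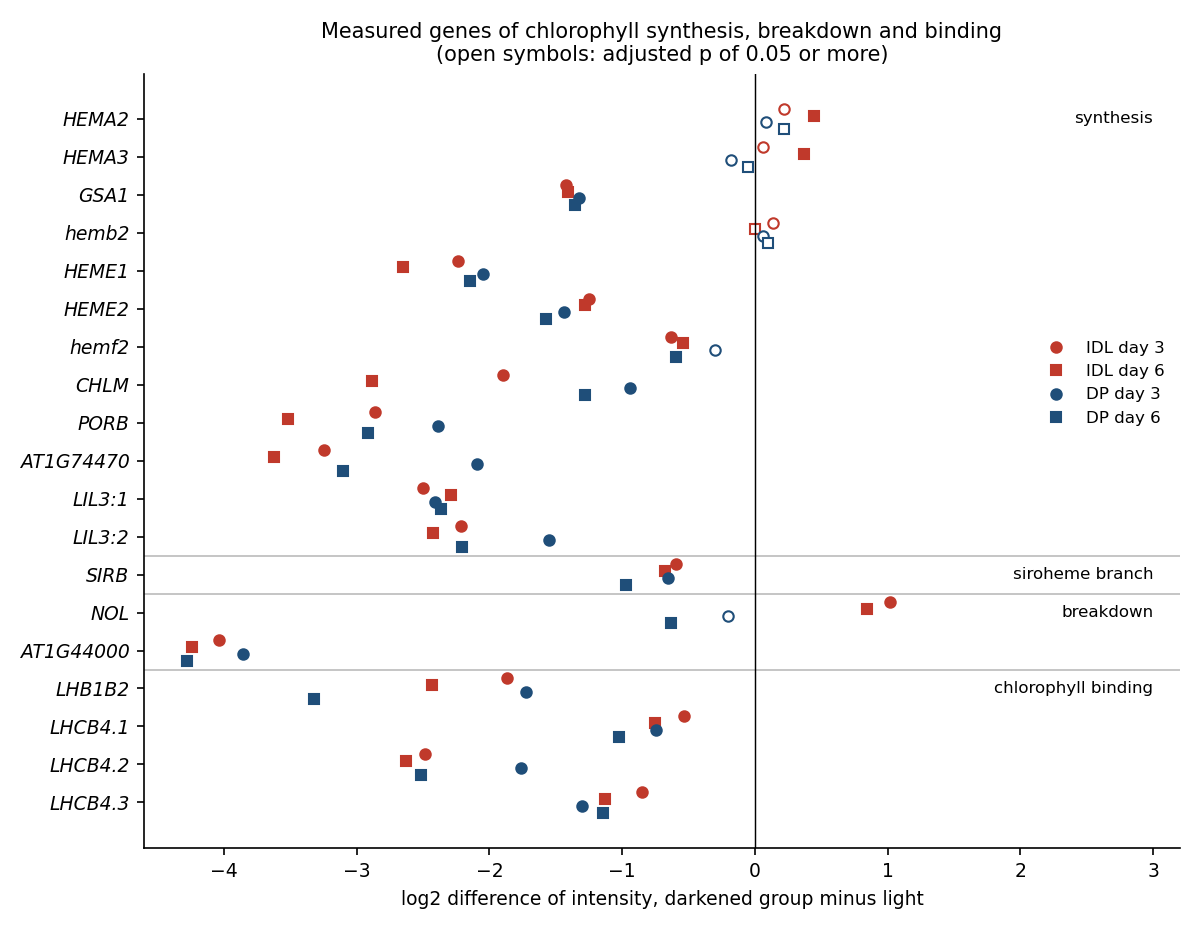
Log2 difference from light (x axis) of the 19 measured genes of chlorophyll synthesis, the siroheme branch, breakdown and chlorophyll binding, in IDL (red) and DP (blue) at day 3 (circles) and day 6 (squares). Open symbols mark an adjusted p of 0.05 or more. HEMA2, HEMA3, hemb2 and NOL have both IDL symbols at or right of 0, and those of NOL lie furthest right.

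Transcripts of chlorophyll-binding proteins were measured for 4 of 23 listed genes, all 4 lower than light in each darkened group, against 18% to 19.6% of all genes. LHB1B2, an antenna protein of photosystem II, stood at -1.86 and -2.43 in IDL at day 3 and day 6, and at -1.73 and -3.32 in DP (SE 0.11). At day 6 it was higher in IDL than in DP by 0.89 ± 0.11 (adjusted p = 2.25e-06), the opposite direction to CHLM and PORB. LHCB4.2 was lower in IDL than in DP at day 3 (-0.72 ± 0.15, adjusted p = 0.00170), the direction of CHLM and PORB, and differed by -0.11 at day 6 (adjusted p = 0.672). LHCB4.2 stood at -2.48 and -2.63 in IDL and at -1.76 and -2.52 in DP. LHCB4.1 stood at -0.54 and -0.75 in IDL and at -0.75 and -1.03 in DP. LHCB4.3, with darkened means of 3.41 to 3.87 near the lower quartile, stood between -1.30 and -0.85. At day 3 LHCB4.3 was higher in IDL than in DP (0.46 ± 0.16, adjusted p = 0.0482). That call was lost without replicate 1 or 2 of DP or any replicate of IDL at day 3, and with median centring or quantile normalization. Of 23 listed regulators of chlorophyll genes 2 were measured. EIN3, a transcription factor of the ethylene response, rose by 1.602 and 1.4995 in IDL and by 1.44 and 1.69 in DP at day 3 and day 6 (SE 0.11). It differed between IDL and DP by 0.16 (adjusted p = 0.411) at day 3 and -0.19 (adjusted p = 0.225) at day 6. EEL, a bZIP factor at the lower quartile in light (3.44), rose by 0.40 and 0.50 in IDL and by 0.48 and 0.69 in DP. The call at day 3 in IDL was lost without replicate 1 or 3 of light or replicate 2 of IDL (adjusted p = 0.0529, 0.0527 and 0.0509).

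The genes whose pattern lay nearest to each of the 5 were found by the root-mean-square difference of log2 intensities over the 15 arrays, each gene centred on its own mean, among the 1625 genes with a symbol. Nearest to NOL was APA1, a vacuolar aspartic protease, at 0.12, which was also the nearest of all 16174 genes. APA1 stood at 0.98 and 0.98 in IDL and at -0.03 and -0.51 in DP against light, at day 3 and day 6. APM1, an aminopeptidase, followed at 0.15 and NQR at 0.26. NOL itself varied by 0.64 about its mean on this measure.

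Nearest to CHLM were HPR, the hydroxypyruvate reductase of photorespiration, at 0.26, PSAN, a subunit of photosystem I, at 0.29, and ALDH11A3, a glyceraldehyde phosphate dehydrogenase, at 0.30. HPR stood at -2.44 and -2.99 in IDL and at -0.86 and -1.14 in DP against light. Nearest to PORB were the LIM protein gene WLIM2a at 0.25, CRR42, a factor for the plastid NDH complex, at 0.25, and SNZ, an AP2 transcription factor, at 0.28. For GSA1 they were PRL, a DNA replication factor, at 0.14, CTF2A at 0.17 and PAC, needed for plastid development, at 0.18. For AT1G44000 they were FTSZ2-2, a plastid division protein, at 0.30, NdhU, a subunit of the NDH complex, at 0.30, and CaS, a calcium sensor of the thylakoid, at 0.30. Of the 5 genes themselves PORB and AT1G44000 were closest, at 0.55, and NOL and AT1G44000 furthest apart, at 1.86. Among all genes AT1G44000 had rank 280 in nearness to PORB, and PORB had rank 84 in nearness to AT1G44000. The measure is not scaled for the size of a change, and the 5 genes varied about their own means by 0.56 (GSA1) to 1.65 (AT1G44000).

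**Figure D5:**
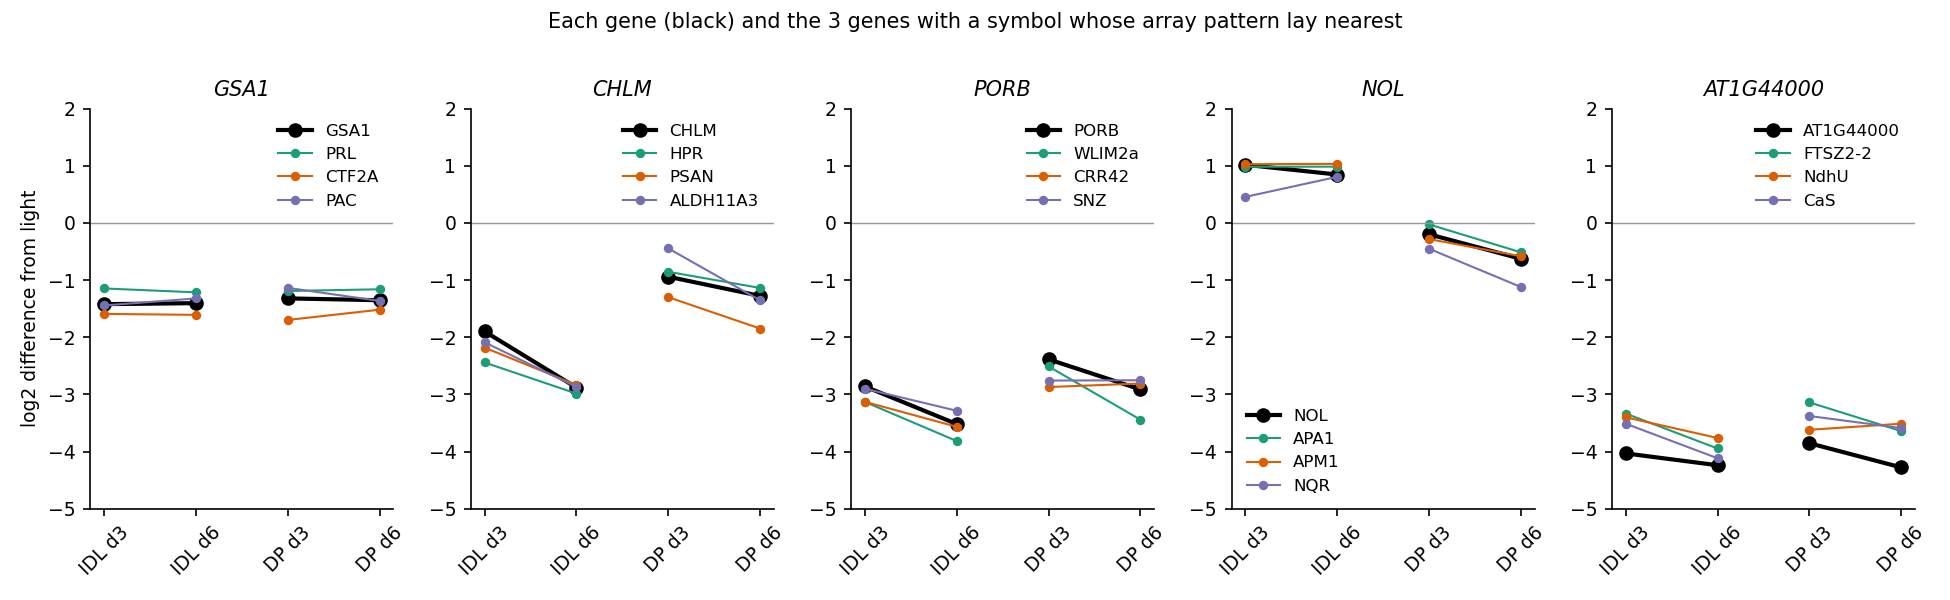
Log2 difference from light (y axis) in IDL and DP at day 3 and day 6 (x axis) for each of the 5 genes (black) and the 3 genes with a symbol nearest to it (colours). Points are group means over 3 arrays less the light mean, and lines join days of 1 treatment. APA1 and APM1 follow NOL above 0 in IDL and below 0 in DP.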

How the data were processed

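The deposited values are linear intensities of 26676 probe sets on 15 arrays. The submitters' processing notes name the R package oligo. Which version, background correction, normalization and summary were used is not stated there or in the labels. Array medians were 18.3 to 19.6. Values were converted to log2. In the platform annotation 16179 probe sets have 1 gene, 588 have several and 9909 have none, and 16067 of the first matched the RefSeq table of TAIR10.1. Where a gene had several probe sets the brightest stood for it, which gave 16174 genes, none left out as dim. The 5 genes described had 1 probe set each. Whether their probes also bind RNA of related genes was not tested.

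The 5 groups entered 1 model in limma 3.58.1 under R 4.3.3 (lmFit and eBayes, a mean per group, prior of 10.5 degrees of freedom), with 9 comparisons. The steps were also run on simulated data in which few genes changed, unlike here, and no result above rests on that run. Named genes were the 5 genes, the measured members of the pathway lists, up to 4 regulators and chlorophyll-binding genes, and the 3 nearest patterns per gene. Genes and lists were chosen with earlier results of these data known. The promoter motif search that had been planned was not run, because no promoter sequences were at hand. Alternatives were median and reference gene centring, quantile normalization, array weights, an intensity trend with robust prior, fits of the compared arrays only, leaving out the dimmest genes, adding probe sets without a single gene, stricter call rules, a replicate block and leaving out each array. With 3 arrays per group, their number limits the precision. Intensities carry no read depth. Figures were drawn with matplotlib 3.10.9.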

Additional observations from a re-analysis of the deposited data

Results flagged for a closer look

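For 3 of the 5 genes the change from light differed between the treatments in the test of IDL against DP, in which the light arrays cancel. Of all 16174 genes 16.7% differed in this test at day 3 and 29.1% at day 6. How many of all genes had no overlap of arrays was not counted. For NOL the difference was 1.22 at day 3 and 1.47 at day 6, with all 3 IDL arrays above all 3 DP arrays at both days. CHLM differed by -0.96 at day 3 and -1.60 at day 6, and PORB by -0.47 at day 3 and -0.61 at day 6, again with no overlap of arrays. For PORB at day 3 the adjusted p was 0.0142, and leaving out any 1 of 4 arrays took it above the threshold. Groups of 3 arrays were too small for a search for single outlying arrays.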

How the results depend on the processing

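The 45 results of the 5 genes (5 genes in 9 comparisons) were recomputed under 795 combinations of result and alternative, and 752 kept direction and call. None of the called differences changed sign. Of the 43 others 11 came from the 2-fold minimum alone. In the 4 comparisons with light every call of the 5 genes held under each other alternative, leaving out each array included. The number of the 5 genes called in IDL against DP at day 3 was 1 with the 2-fold minimum, and it was 2 to 3 without single arrays. For DP at day 6 against day 3 it was 0 at an adjusted p under 0.01, with the 2-fold minimum and with reference gene centring, 1 when only the arrays compared were fitted, and 0 to 2 without single arrays. For IDL at day 6 against day 3 it was 0 with the 2-fold minimum. For the interaction it was 1 after quantile normalization and with an intensity trend and robust prior, and 0 to 1 without single arrays.

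With arrays centred on 7 reference genes, the all-gene median was 0.22 in place of 0.03 in IDL at day 6 against light, and 0.19 in place of -0.04 in IDL at day 6 against day 3. The share of called genes that were higher went from 51.9% to 69.7% in the first, from 55.7% to 93.8% in the second, from 52.1% to 73.2% in IDL against DP at day 6, from 44.4% to 73.9% in DP at day 6 against day 3 and from 58.5% to 82.1% in the interaction. One of these reference genes, GAPC2, itself fell by 1.67 in IDL at day 6 against light. Deviations from the group means correlated at -0.08 to 0.09 (median 0.016) over 30 pairs of the same replicate number and at -0.10 to 0.092 (median -0.0098) between other numbers. Each array was set against 3 replicate numbers, and 9 of 15 arrays were closest to their own. The labels do not say that a number marks a batch, so the block was kept as an alternative. With the replicate number as a block, NOL in DP at day 6 against day 3 was not called (adjusted p = 0.0612) and no other call of the 5 genes changed. The other pathway genes were run under the same alternatives, chosen for them after seeing the data, and 2428 of 2517 combinations kept their call.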
